A study of Mus musculus with 49 samples.

Results

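The genes described here encode the subunits of the proteasome, together with its activators, its inhibitor and its assembly chaperones. They were chosen by name, as probe sets annotated with 1 gene symbol that starts with Psm, goes on with 1 of the letters a to g and then a digit. The rule found 103 probe sets for 49 genes among 45101 probe sets on the array, of which 34958 carry a single symbol. Of the 49 genes, 47 belong to the complex or act on it, and 2 only share the name: Psmc3ip, a cofactor of meiotic recombination, and Psme3ip1, a protein that binds an activator subunit. A further probe set matches the pattern but carries 2 symbols, Psme2b and Psme2, so it was not a member.

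The proteasome degrades proteins that carry a ubiquitin chain. Its core particle is a barrel of alpha and beta rings, in which Psmb6, Psmb7 and Psmb5 hold the caspase-like, trypsin-like and chymotrypsin-like sites. The regulatory particle caps the barrel: its ATPases (Psmc genes) unfold the substrate, and its non-ATPase subunits (Psmd genes) bind and remove ubiquitin. In cells exposed to interferon, Psmb9, Psmb10 and Psmb8 take the places of Psmb6, Psmb7 and Psmb5 in newly built particles, the immunoproteasome, which is known for making peptides for MHC class I; leukocytes carry it without a stimulus. In stressed cells the transcription factor Nfe2l1 is known to raise the constitutive subunit genes together.

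The series follows mouse liver after acetaminophen (APAP, paracetamol), a drug whose overdose kills the hepatocytes around the central vein. Male C57BL6/N mice had been kept without food overnight, received 1 intraperitoneal injection of 300 mg/kg APAP in warm phosphate-buffered saline and had free access to food from then on. Livers were taken at 9 times after the dose: at 1 h, 6 h and 12 h, then at 1 d, 2 d and 4 d (d for days), and last at 6 d, 8 d and 16 d. Others came from control mice of the same strain and sex, whose treatment label is "none"; the sources used here do not say whether control mice were starved or given the vehicle, and only the labels mention the group taken at 16 d. RNA of whole liver was hybridised to Affymetrix Mouse Genome 430 2.0 arrays, 49 in all, with 4 at 6 h and 5 in each other group.

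Every probe set has a value on 25 arrays, those of the groups 1 h and 12 h and 1 d, 2 d and 16 d, and all 103 member probe sets were compared among these groups, mostly with 1 h as the reference. The other groups hold 8137 probe sets shared by all arrays, among them 32 member probe sets of 24 genes, and only these were compared with control. Values are log2 expression levels, given as group mean ± SD over arrays, and a difference is a log2 difference between group means ± its standard error (SE) in limma's fit. A probe set was called higher or lower, and is said below to have risen or fallen, when its adjusted p (Benjamini-Hochberg, over every probe set tested in that comparison) was under 0.05. A gene is represented by its probe set with the highest mean; levels of different probe sets cannot be compared with each other. The labels do not say that each array is a separate mouse, so the p-values measure the spread between these arrays, which may be technical.

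The hepatocyte markers fit the tissue label. The mean over 9 of them lay between 12.3 and 13.0 on the 25 arrays, where the highest level of any probe set was 14.4. It ran from 12.82 to 12.97 at 1 h, 12.52 to 12.81 at 12 h and 12.27 to 12.69 at 1 d. The later ranges were 12.45 to 12.80 at 2 d and 12.59 to 12.81 at 16 d. Named after their values were seen, Hpd (-1.44), Ass1 (-1.24), Tat (-0.88) and Cps1 (-0.43) were called lower at 1 d than at 1 h and Fgb (0.36) higher. Leukocyte and macrophage markers were present from the start and moved with time: the mean over 16 of them ran from 6.53 to 7.02 on the 1 h arrays, 7.21 to 8.50 at 12 h, 7.69 to 8.64 at 1 d, 7.97 to 8.56 at 2 d and 6.43 to 7.53 at 16 d. In whole liver, fewer cells of a type and less RNA per cell cannot be told apart. On 3 arrays, control replicate 3, 1 h replicate 3 and 16 d replicate 4, the values were less spread than on the other 46 (SD 2.25 to 2.26 against 2.40 to 2.48 over the shared probe sets), and many member genes had their lowest value of the group there. Ribosomal protein genes, often taken as a stable reference, themselves rose after the dose: 31 of 43 were called higher at 1 d than at 1 h, with a median difference of 0.42. Setting each array to its own ribosomal protein mean (ribosomal centring) shifted every log2 difference from 1 h by -0.21 at 12 h, -0.33 at 1 d, -0.27 at 2 d and 0.02 at 16 d, which is as large as many subunit changes. Calls of member genes that were lost under it are marked where the gene is described.

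Promoter sequences are shown for 7 genes on which the results turn: the regulatory subunits with large rises (Psmd8, Psmc4), a constitutive catalytic subunit (Psmb5), the 3 immunoproteasome subunits and the activator subunit Psme1. They are RefSeq windows of build GRCm38.p6 from 250 bases before to 50 after the annotated start, written 5′ to 3′ along the gene. RefSeq windows were at hand for 41 of the 49 genes. Capitals mark 3 motifs searched on both strands: TGANNNNGC, the core of the antioxidant response element that Nfe2l1 and Nfe2l2 bind, CCAAT, which nuclear factor Y binds, and GAAA followed by any 2 bases and GAAA again, the interferon-stimulated response element. 
Psmd8, chr7:29180624-29180923, minus strand: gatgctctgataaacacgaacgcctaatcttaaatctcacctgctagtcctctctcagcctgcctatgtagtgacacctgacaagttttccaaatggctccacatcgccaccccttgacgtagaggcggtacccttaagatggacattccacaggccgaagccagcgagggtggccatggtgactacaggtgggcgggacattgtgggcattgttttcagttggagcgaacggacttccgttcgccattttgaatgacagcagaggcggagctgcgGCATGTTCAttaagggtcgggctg
Psmc4, chr7:28050043-28050342, minus strand: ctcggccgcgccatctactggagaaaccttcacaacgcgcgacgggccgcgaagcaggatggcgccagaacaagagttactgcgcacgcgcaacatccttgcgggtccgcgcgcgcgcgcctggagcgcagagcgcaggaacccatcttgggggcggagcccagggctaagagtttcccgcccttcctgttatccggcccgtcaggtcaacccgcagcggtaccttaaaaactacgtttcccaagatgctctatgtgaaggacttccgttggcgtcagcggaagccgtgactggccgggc
Psmb5, chr14:54617946-54618245, minus strand: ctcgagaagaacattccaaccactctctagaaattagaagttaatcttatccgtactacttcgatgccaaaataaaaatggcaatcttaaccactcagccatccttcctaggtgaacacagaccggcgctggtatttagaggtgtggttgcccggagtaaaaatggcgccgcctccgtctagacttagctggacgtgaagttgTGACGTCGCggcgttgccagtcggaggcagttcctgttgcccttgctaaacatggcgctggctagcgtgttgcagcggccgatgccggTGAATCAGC
Psmb8, chr17:34197945-34198244, plus strand: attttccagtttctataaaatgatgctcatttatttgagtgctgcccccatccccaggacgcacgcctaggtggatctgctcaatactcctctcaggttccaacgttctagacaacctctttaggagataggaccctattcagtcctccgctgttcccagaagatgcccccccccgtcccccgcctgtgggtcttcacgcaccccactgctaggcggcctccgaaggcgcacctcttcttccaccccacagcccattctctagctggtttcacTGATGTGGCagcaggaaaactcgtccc
Psmb9, chr17:34187281-34187580, minus strand: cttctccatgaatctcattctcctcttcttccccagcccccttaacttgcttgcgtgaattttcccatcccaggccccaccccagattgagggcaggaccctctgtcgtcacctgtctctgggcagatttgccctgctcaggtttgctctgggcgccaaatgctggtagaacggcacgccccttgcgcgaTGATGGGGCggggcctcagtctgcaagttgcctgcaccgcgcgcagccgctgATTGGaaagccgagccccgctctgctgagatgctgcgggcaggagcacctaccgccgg
Psmb10, chr8:105938343-105938642, minus strand: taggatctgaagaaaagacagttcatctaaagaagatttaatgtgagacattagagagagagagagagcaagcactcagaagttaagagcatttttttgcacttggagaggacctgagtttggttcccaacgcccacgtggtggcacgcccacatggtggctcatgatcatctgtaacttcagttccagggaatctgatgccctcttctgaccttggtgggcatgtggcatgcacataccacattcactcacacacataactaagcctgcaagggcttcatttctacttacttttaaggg
Psme1, chr14:55578244-55578543, plus strand: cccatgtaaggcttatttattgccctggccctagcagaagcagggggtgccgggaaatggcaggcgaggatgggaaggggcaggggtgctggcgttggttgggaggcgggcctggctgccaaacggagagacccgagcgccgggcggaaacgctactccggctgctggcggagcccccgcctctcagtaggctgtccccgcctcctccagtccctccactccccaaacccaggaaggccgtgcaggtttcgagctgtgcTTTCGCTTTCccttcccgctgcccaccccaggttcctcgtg

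The member shares cover 41 windows of 39 genes, since Psmc3ip and Psme3ip1 were left out. TGANNNNGC was found in 56.1% of these windows and in 41.3% of all 32851 windows. CCAAT was found in 34.1% and 37.4%, and the interferon-stimulated response element in 12.2% and 3.44%. Psmb5 has TGANNNNGC on both sides of its start, Psmd8 has it on the strand opposite to the one shown, and Psmb8 and Psmb9 have it once each. Psmb9 also has CCAAT and Psme1 the interferon-stimulated response element, both on the opposite strand, and none of the 3 motifs is in the Psmc4 and Psmb10 windows. No matches overlapped. A match describes letters and is no evidence of binding.

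At 12 h and 1 d after APAP several regulatory particle and core genes were higher than at 1 h, most of which were no longer so at 1 d after ribosomal centring. The 3 immunoproteasome genes were not higher at either time. At 2 d constitutive core and regulatory genes were near 1 h on the scale as deposited and immunoproteasome genes lay above it. By number, 12 member probe sets rose and 2 fell at 12 h against 1 h (13.6% of 103, against 13.7% of all probe sets). At 1 d 14 rose and 4 fell (17.5%, against 18% of all), at 2 d 9 rose and 8 fell (16.5%, against 23%), and at 16 d none rose and 1 fell (0.971%, against 1.7%). At none of these times was the share of members called above the share of all probe sets. After ribosomal centring the split was 4 higher and 22 lower at 12 h, 4 and 33 at 1 d, and 4 and 63 at 2 d. Over all 45037 probe sets that centring gave 2036 higher and 18647 lower at 12 h. It gave 2040 and 28363 at 1 d, and 3138 and 26082 at 2 d. The downward split was therefore not particular to the members. Quantile normalization gave 9 and 19 members at 2 d, and 4857 and 4986 of all probe sets.

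**Figure D1:**
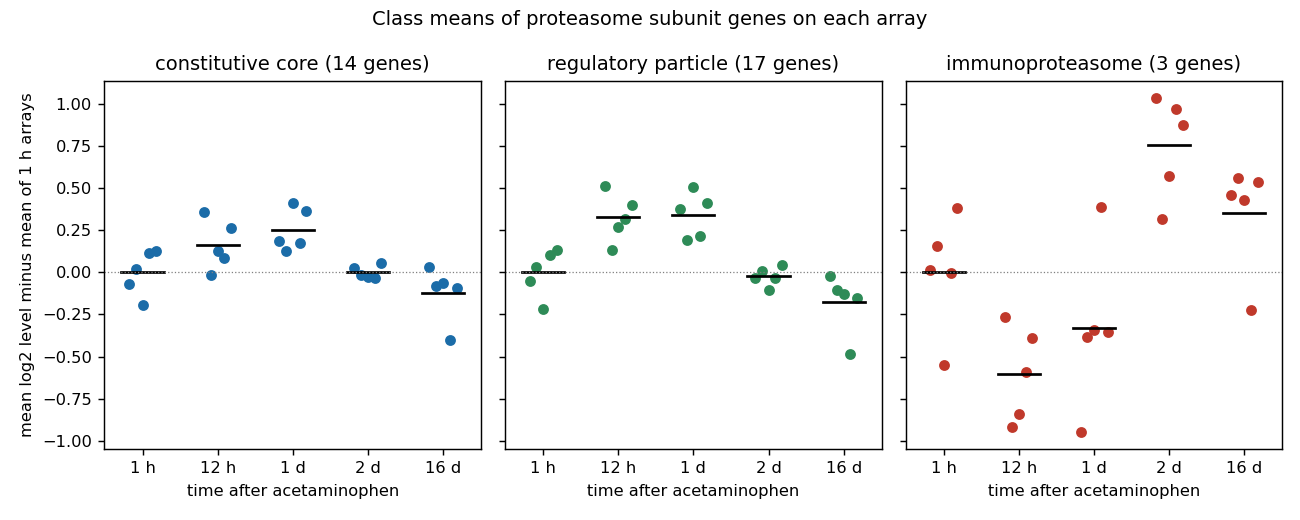
Mean over the genes of a class on each array, as log2 distance from the mean of the 1 h arrays, for 14 constitutive core genes, 17 regulatory particle genes and 3 immunoproteasome genes; points are arrays and bars are group means. At 1 d the regulatory particle averaged 0.34 and the immunoproteasome -0.33, at 2 d -0.02 and 0.75. Ribosomal centring moves the group means of 1 d and 2 d down by 0.33 and 0.27 relative to 1 h, and single arrays by differing amounts. It turns the core and regulatory means at 1 d from above to below or near 1 h.

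The 14 constitutive core genes (Psma1 to Psma7 and Psmb1 to Psmb7) had a median difference from 1 h of 0.18 at 12 h, 0.26 at 1 d, 0.02 at 2 d and -0.15 at 16 d, while the median of all genes lay between -0.08 and -0.01. At 1 d 4 of the 14 rose and none fell, with 13 positive differences; over all genes 11.2% were called higher and 10.9% lower in that comparison. After ribosomal centring none of the 14 was higher at 1 d, 1 was lower and 11 differences were negative, so the direction of this class rests on the scale used. Of the arrays, the class mean at 1 d was 0.25 ± 0.13 above 1 h (SD, n = 5), with arrays from 0.13 to 0.41, against -0.19 to 0.12 on the 1 h arrays.

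Psma2, an alpha ring subunit, had the largest rise of the alpha genes at 1 d, and Psma1 the smallest difference. Psma2 measured 10.19, 10.21, 9.88, 10.19 and 10.15 at 1 h, 10.46, 10.38, 10.31, 10.31 and 10.40 at 12 h, 10.71, 10.26, 10.63, 10.50 and 10.62 at 1 d, 10.26, 10.10, 10.11, 10.10 and 10.25 at 2 d and 10.17, 10.10, 10.06, 9.73 and 10.00 at 16 d. Every 1 d array lay above every 1 h array, and the 2 d arrays overlapped those of 1 h. It rose by 0.42 ± 0.09 at 1 d against 1 h (limma adjusted p = 0.00247). Psma1 differed from 1 h by 0.15 ± 0.12 at 1 d (limma adjusted p = 0.399) and was called at no time. Among the beta genes without a proteolytic site, Psmb3 measured 10.49, 10.52, 10.97, 10.49 and 10.71 at 1 d, against 10.08, 10.16, 10.00, 10.31 and 10.35 at 1 h. These arrays did not overlap either, and Psmb3 rose by 0.46 ± 0.12 (limma adjusted p = 0.0085). Psmb1 differed by -0.06 ± 0.09 and was called at no time. Both rises shrank under ribosomal centring, to 0.08 for Psma2 and 0.12 for Psmb3, and neither was then called.

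The 3 constitutive catalytic subunits differed in how far they moved. Psmb5, whose site cuts after hydrophobic residues, measured 10.52, 10.71, 10.52, 10.67 and 10.75 at 1 h, 10.99, 10.70, 10.76, 10.84 and 10.93 at 12 h, 11.01, 10.80, 11.30, 10.94 and 11.07 at 1 d, 10.76, 10.73, 10.66, 10.62 and 10.81 at 2 d and 10.55, 10.53, 10.53, 10.24 and 10.44 at 16 d. Its 1 d arrays were all above those of 1 h, and it rose by 0.39 ± 0.09 at 1 d (limma adjusted p = 0.00327). Psmb6, which holds the caspase-like site, stood at 10.70 ± 0.08 at 1 d, against 10.43 ± 0.19 at 1 h (SD, n = 5 each), a difference of 0.27 ± 0.10 that was not called (limma adjusted p = 0.0622). Psmb7, which holds the trypsin-like site, stood at 10.11 ± 0.21 at 1 d, against 10.00 ± 0.23 at 1 h, and was called at no time, with differences from -0.10 to 0.11. With ribosomal centring Psmb5 differed by 0.06 at 1 d and was not called.

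Of the 17 regulatory particle genes, 7 rose at 12 h and 6 at 1 d and none fell, and all 17 differences were positive at both times (medians 0.29 and 0.28); over all genes 7.77% were called higher and 9.49% lower at 12 h. At 2 d 1 was higher and 1 lower with a median of -0.09 (14.3% of all genes higher, 12.5% lower), and at 16 d none was called with a median of -0.16. After ribosomal centring 12 of the 17 differences stayed positive at 12 h, with 4 called higher, but only 5 at 1 d, with 3 called higher and 1 lower.

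Psmd8, a lid subunit of the regulatory particle, had the largest rise of all member genes at 1 d. It measured 10.50, 10.58, 10.41, 10.68 and 10.73 at 1 h, 10.96, 11.13, 11.09, 10.92 and 11.06 at 12 h, 11.66, 11.32, 11.48, 11.65 and 11.46 at 1 d, 11.04, 11.40, 11.00, 11.20 and 11.36 at 2 d and 10.52, 10.63, 10.54, 10.17 and 10.44 at 16 d. The arrays of 12 h, 1 d and 2 d all lay above every 1 h array, and those of 1 d all lay above those of 12 h. Psmd8 rose by 0.45 ± 0.10 at 12 h, 0.93 ± 0.10 at 1 d and 0.62 ± 0.10 at 2 d against 1 h (limma adjusted p = 0.00335, 5.37e-07 and 7.59e-05), a 1.91-fold level at 1 d. It was the only member called between 12 h and 1 d, where it rose by 0.48 ± 0.10 (limma adjusted p = 0.0169; 0.971% of members against 1.06% of all probe sets); that call was lost without 12 h replicate 1 (0.46, adjusted p = 0.0502) or 1 d replicate 4 (0.45, adjusted p = 0.0648). At 16 d it was at 10.46 ± 0.18, against 10.58 ± 0.13 at 1 h. Psmd8 stayed called under ribosomal centring at 12 h, 1 d and 2 d, at 0.24, 0.60 and 0.35.

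Among the ATPases that unfold substrates, Psmc4 had the largest and Psmc1 the smallest difference from 1 h at 1 d. Psmc4 measured 10.14, 9.64, 9.93, 9.89 and 9.96 at 1 h, 11.16, 10.46, 10.78, 10.83 and 10.39 at 12 h, 10.86, 10.73, 10.91, 10.09 and 10.65 at 1 d, 9.87, 10.32, 10.08, 10.02 and 9.89 at 2 d and 10.21, 9.76, 9.57, 9.74 and 9.66 at 16 d. The 12 h arrays were all above those of 1 h; at 1 d replicate 4 was low and lay within their range. Psmc4 rose by 0.81 ± 0.16 at 12 h and 0.74 ± 0.16 at 1 d (limma adjusted p = 0.001 and 0.00175), 1.76-fold at 12 h, and stayed called under ribosomal centring. Psmc1 differed by 0.24 ± 0.12 at 12 h and 0.05 ± 0.12 at 1 d and was called at no time against 1 h, and its 1 d difference turned negative under ribosomal centring (-0.29).

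Other regulatory subunits are named here after their values were seen. Psmd14, the metalloprotease that removes ubiquitin chains from substrates, measured 10.83, 10.57, 11.07, 10.83 and 10.77 at 1 d, against 10.10, 10.23, 10.09, 10.28 and 10.28 at 1 h. The groups did not overlap, and it rose by 0.62 ± 0.11 (limma adjusted p = 0.000265), which stayed called under ribosomal centring (0.29). Psmd3 and Psmd7, both structural subunits of the lid, rose by 0.49 ± 0.11 and 0.55 ± 0.14 at 1 d (limma adjusted p = 0.00227 and 0.00924). Neither call was kept under ribosomal centring (0.16 and 0.22, adjusted p = 0.174 and 0.187). Both, and likewise Psmd11 and Psmd12, had already risen at 12 h, by 0.46, 0.59, 0.40 and 0.42. Under ribosomal centring Psmd3 and Psmd7 kept the 12 h call, while Psmd11 differed by 0.20 and Psmd12 by 0.21 and were not called (adjusted p = 0.0948 and 0.0764). At the other end of the class, Psmd1, a large scaffold subunit at the base, differed by 0.15 ± 0.11 at 1 d (limma adjusted p = 0.365).

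**Figure D2:**
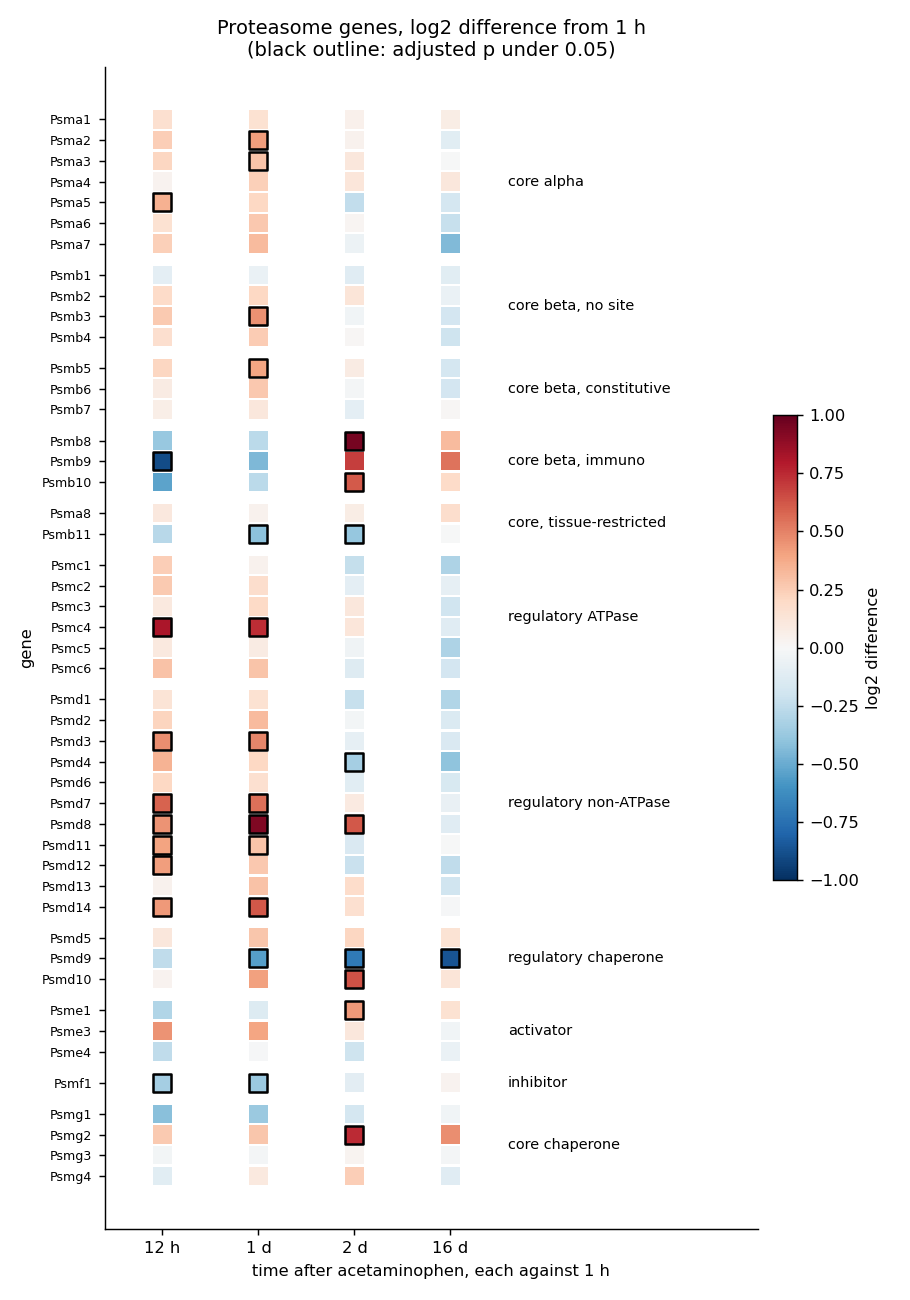
Log2 difference from 1 h of the 47 genes of the complex at 12 h, 1 d, 2 d and 16 d, by role; colour gives the difference from -1 to 1 and a black outline marks an adjusted p under 0.05. Outlines of higher genes lie in the regulatory and core rows at 12 h and 1 d, and at 2 d in the rows of Psmb8, Psmb10, Psmd8, Psmd10, Psme1 and Psmg2; under ribosomal centring the core row is lower than 1 h for 11 of 14 genes at 1 d.

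Between 1 d and 2 d constitutive core and regulatory genes fell, under ribosomal centring as well. Of 103 member probe sets, 5 rose and 22 fell at 2 d against 1 d (26.2%, against 5.59% of all probe sets called, 4% higher and 1.59% lower). By gene, 4 of 14 constitutive core genes and 8 of 17 regulatory genes fell and none rose, and all 31 differences were negative, with medians of -0.25 and -0.38; 1.83% of all genes were called lower. Ribosomal centring kept 30 of the 31 negative and called 3 core and 7 regulatory genes lower. Over the member probe sets it gave 6 higher and 15 lower, and over all 45037 probe sets 2582 higher and 523 lower. The largest falls among called genes were those of Psmc4 (-0.61 ± 0.16, limma adjusted p = 0.0201), Psmd3 (-0.58 ± 0.11, adjusted p = 0.00127) and Psmd4 (-0.55 ± 0.12, adjusted p = 0.00711). Psmd12 fell by 0.49 ± 0.10: it measured 9.89, 9.88, 9.74, 9.69 and 9.78 at 2 d, against 10.40, 10.10, 10.51, 10.04 and 10.39 at 1 d, with no overlap (limma adjusted p = 0.0019); Psmd3 and Psmd12 were named after their values were seen. Psmb3 fell by 0.49 ± 0.12, Psma2 by 0.38 ± 0.09 and Psmb5 by 0.31 ± 0.09 (limma adjusted p = 0.0128, 0.0144 and 0.0431). The core count depended on 1 d replicate 1, without which 2 core genes were called: Psma2 then differed by -0.33 (adjusted p = 0.0587) and Psmb5 by -0.31 (adjusted p = 0.0885). The Psmb5 call was lost on leaving out any of 8 of the 10 arrays (adjusted p up to 0.128) and under ribosomal centring (-0.24, adjusted p = 0.136), and that of Psmc4 on leaving out any of 4 (adjusted p up to 0.07).

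**Figure D3:**
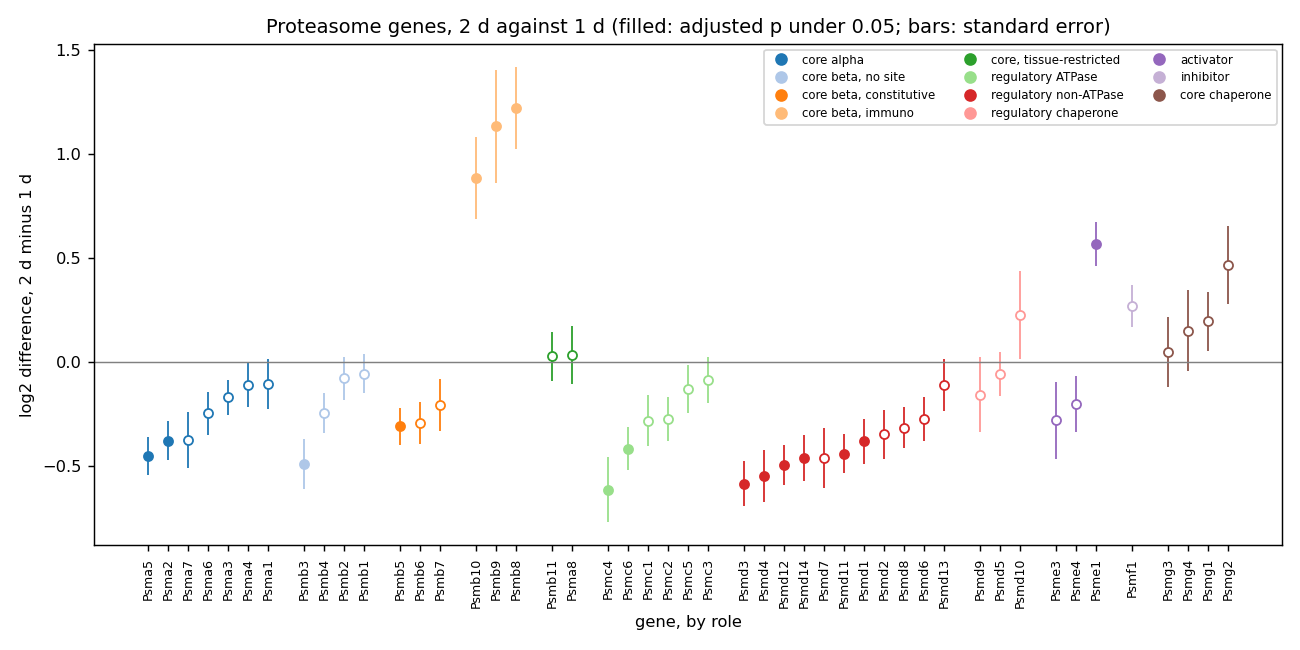
Log2 difference between 2 d and 1 d for the 47 genes of the complex, grouped by role and ordered within it; bars are standard errors and filled points have an adjusted p under 0.05. All 31 constitutive core and regulatory genes lie below 0 and the 3 immunoproteasome genes and Psme1 above it; under ribosomal centring every point moves up by 0.07, which turns 1 core gene positive.

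The immunoproteasome subunits ran the other way. None of Psmb8, Psmb9 and Psmb10 was higher at 12 h or 1 d, and 2 of the 3 rose at 2 d against 1 h (14.3% of all genes higher). All 3 rose at 2 d against 1 d, by a median of 1.13, and over all genes 5.81% were called higher in that comparison. On the scale as deposited 1 of the 3 was lower at 12 h (9.49% of all genes lower) and none at 1 d (10.9%). After ribosomal centring all 3 were called lower at 12 h and at 1 d, 1 was called higher at 2 d, and the 3 rises against 1 d remained. Of all 45037 probe sets, that centring called 18647 lower at 12 h and 28363 at 1 d. It called 3138 higher at 2 d against 1 h and 2582 against 1 d.

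Psmb8 replaces Psmb5 in the immunoproteasome. It measured 8.00, 8.13, 7.59, 8.01 and 8.40 at 1 h, 7.81, 7.44, 7.50, 7.64 and 7.87 at 12 h, 7.29, 7.79, 7.41, 8.59 and 7.71 at 1 d, 9.11, 8.66, 8.73, 9.28 and 9.14 at 2 d and 8.42, 8.61, 8.31, 7.86 and 8.53 at 16 d. All 2 d arrays were above all arrays of 1 h and 1 d, and at 1 d replicate 4 stood well above the other 4 arrays. Psmb8 rose by 0.96 ± 0.20 at 2 d against 1 h (1.94-fold, limma adjusted p = 0.00104) and by 1.22 ± 0.20 against 1 d (2.34-fold, adjusted p = 0.000269). Both calls held under ribosomal centring (0.69 and 1.29). At 16 d it was -0.64 ± 0.20 from 2 d (limma adjusted p = 0.0284), a fall whose call was lost on leaving out any of 5 of the 10 arrays, 16 d replicates 3 and 4 and 2 d replicates 1, 4 and 5 (adjusted p up to 0.0935), and under ribosomal centring (-0.35, adjusted p = 0.097).

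Psmb9 replaces Psmb6. It measured 7.33, 7.71, 6.76, 7.37 and 7.78 at 1 h, 7.16, 5.93, 5.98, 6.61 and 6.79 at 12 h, 6.17, 6.69, 7.23, 7.75 and 6.88 at 1 d, 8.60, 7.55, 7.80, 8.31 and 8.13 at 2 d and 8.14, 8.07, 8.11, 7.39 and 7.96 at 16 d. The arrays of 12 h and 1 d spread widely, and 1 d replicate 4 overlapped the 2 d arrays. Psmb9 fell by 0.90 ± 0.27 at 12 h (limma adjusted p = 0.029), a call lost without 1 h replicate 2 or 5 or 12 h replicate 2 or 3 (values from -0.75 to -0.82, adjusted p up to 0.09). It rose by 1.13 ± 0.27 between 1 d and 2 d (limma adjusted p = 0.0119), a call lost without 1 d replicate 1 (0.94, adjusted p = 0.0533). Against 1 h it differed by 0.69 ± 0.27 at 2 d and 0.54 ± 0.27 at 16 d, neither called (limma adjusted p = 0.0687 and 0.562).

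Psmb10 replaces Psmb7. It measured 8.46, 8.37, 7.75, 8.35 and 8.70 at 1 h, 7.97, 7.62, 7.74, 7.72 and 7.91 at 12 h, 7.44, 8.11, 8.08, 8.57 and 8.09 at 1 d, 9.14, 8.49, 8.92, 9.06 and 9.10 at 2 d and 8.56, 8.75, 8.61, 7.83 and 8.85 at 16 d. At 2 d replicate 2 was low and lay within the range of the 1 h arrays. Psmb10 rose by 0.89 ± 0.20 at 2 d against 1 d (limma adjusted p = 0.00642), and by 0.62 ± 0.20 against 1 h (adjusted p = 0.0264). The call against 1 h was lost without 1 h replicate 3 (0.47, adjusted p = 0.0944) or 2 d replicates 1, 4 or 5 (adjusted p up to 0.0635) and under ribosomal centring (0.35, adjusted p = 0.106).

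Each immunoproteasome subunit was also set against the subunit it replaces on the same array, a difference that no centring of arrays can move. The change of this difference from 1 h was tested with a 2-sided exact permutation test over 5 against 5 arrays, for 12 comparisons adjusted together; the smallest p that the test can give is 0.00794. For Psmb8 minus Psmb5 it was -0.59 ± 0.10 at 12 h, -0.66 ± 0.29 at 1 d, 0.87 ± 0.16 at 2 d and 0.50 ± 0.13 at 16 d (exact test, adjusted p = 0.0159, 0.0857, 0.0159 and 0.0238). For Psmb9 minus Psmb6 it was -0.98 ± 0.24, -0.72 ± 0.26, 0.71 ± 0.21 and 0.73 ± 0.13 at the same times (exact test, adjusted p = 0.0238, 0.0423, 0.0159 and 0.0159). For Psmb10 minus Psmb7 it was -0.60 ± 0.15, -0.38 ± 0.22, 0.71 ± 0.17 and 0.18 ± 0.20 (exact test, adjusted p = 0.0159, 0.147, 0.0159 and 0.413). All 3 pairs had moved toward the constitutive subunit at 12 h and toward the immunoproteasome subunit at 2 d, and at 16 d 2 of the 3 were still above 1 h. The arrays of 2 d were all above those of 1 h for the 3 pairs. The 1 d values rest on single arrays: without 1 d replicate 4, Psmb8 minus Psmb5 was -0.89 (exact test, adjusted p = 0.019), and the 1 d call of Psmb9 minus Psmb6 was lost on leaving out any of 7 of the 10 arrays (values from -0.55 to -0.77).

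**Figure D4:**
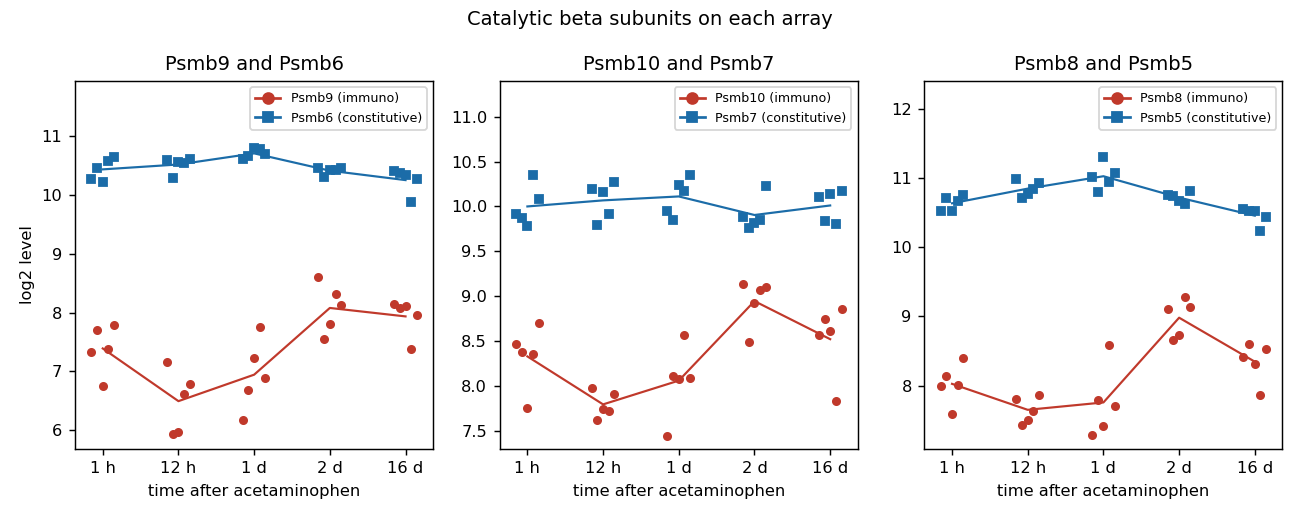
Log2 level on each array of the immunoproteasome subunit (circles) and of the constitutive subunit it replaces (squares) at 1 h, 12 h, 1 d, 2 d and 16 d; lines join group means, and the height of one curve against the other has no meaning, since probe sets differ. Psmb8 stands at 8.98 at 2 d, against 7.76 at 1 d, while Psmb5 stands at 10.72, against 11.02; ribosomal centring shifts both curves of a panel by the same amount at each time.

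Genes that respond to interferon and leukocyte markers were measured beside them. The interferon list (10 genes) had 4 lower and none higher at 12 h against 1 h (9.49% of all genes lower). It had 8 higher and none lower at 2 d against 1 d (5.81% of all genes higher), with a median of 1.12. Its mean level was 5.40 to 6.51 on the 1 d arrays and 6.65 to 7.39 on those of 2 d. At 1 d it was highest on replicate 4 (6.51) and lowest on replicate 1 (5.40), the arrays on which the immunoproteasome mean was highest and lowest (0.39 and -0.95 from 1 h). The leukocyte list was also highest on 1 d replicate 4 (8.64), but lowest on replicate 3 (7.69). A list of 10 genes of MHC class I presentation was likewise highest on replicate 4 (9.88) and lowest on replicate 1 (9.73). For the interferon list and the immunoproteasome mean, the arrays of the other times matched in part or not at all. At 1 h both were lowest on replicate 3 (5.74 and -0.55) and at 16 d on replicate 4 (5.93 and -0.22), which are among the less spread arrays. Their highest arrays differed at 1 h and 16 d. At 12 h the list was highest on replicate 2 (6.21), where the immunoproteasome mean was lowest (-0.92). At 2 d the list was highest on replicate 5 and the immunoproteasome mean on replicate 1. Of the 16 leukocyte markers, 7 were higher and none lower at 12 h against 1 h (7.77% and 9.49% of all genes). At 1 d 11 were higher and 1 lower (11.2% and 10.9% of all genes), the lower being Cd3e, a chain of the T cell receptor complex, at -0.37. At 2 d 11 were higher and 1 lower (14.3% and 12.5% of all genes), and at 16 d their median difference was 0.03. Between 1 d and 2 d 4 of the 16 rose (5.81% of all genes). They were Lyz2, a lysozyme of macrophages, by 1.15, Laptm5 by 0.95, Cd68 by 0.75 and Csf1r by 0.50, genes named after their values were seen. Of the 16 differences 13 were positive. S100a9 (-1.98), S100a8 (-1.80) and Cd14 (-0.69), also named after their values were seen, went the other way and were not called. The part of either list in the immunoproteasome values was not tested.

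Of the activators, Psme1, a subunit of the ring that opens the core in interferon-treated cells, also rose at 2 d. It measured 9.69, 9.91, 9.41, 9.81 and 9.82 at 1 h, 9.39, 9.60, 9.45, 9.34 and 9.39 at 12 h, 9.54, 9.50, 9.58, 9.73 and 9.62 at 1 d, 10.21, 10.24, 10.12, 10.14 and 10.09 at 2 d and 9.94, 10.11, 10.00, 9.44 and 9.92 at 16 d. The 2 d arrays lay above all arrays of the earlier times. Psme1 rose by 0.43 ± 0.11 at 2 d against 1 h and 0.57 ± 0.11 against 1 d (limma adjusted p = 0.00462 and 0.00128); the first, not the second, was lost under ribosomal centring (0.16, adjusted p = 0.12). Psme3, the nuclear activator, differed from 1 h by 0.45 ± 0.19 at 12 h and 0.39 ± 0.19 at 1 d, and Psme4, a large single-chain activator, by -0.25 ± 0.14 at 12 h and -0.01 ± 0.14 at 1 d; neither was called at any time against 1 h. Psmf1, which encodes an inhibitor of the core, measured 7.39, 7.29, 7.59, 7.52 and 7.73 at 1 d, against 7.91, 7.92, 7.70, 7.91 and 7.94 at 1 h, overlapping by 1 array. It fell by 0.34 ± 0.10 at 12 h and 0.37 ± 0.10 at 1 d (limma adjusted p = 0.0229 and 0.0105) and was near its 1 h level at 2 d (-0.10); the 12 h call was lost on leaving out 1 h replicate 2 or 12 h replicates 2, 3 or 4 (values from -0.29 to -0.33, adjusted p up to 0.0678).

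The assembly chaperones did not move as a class. Of the 4 that build the core, Psmg2 rose at 2 d: it measured 9.34, 8.93, 9.15, 9.26 and 9.03 at 2 d, against 8.61, 8.54, 7.76, 8.59 and 8.50 at 1 h, without overlap (0.74 ± 0.19, limma adjusted p = 0.00637), and stayed called under ribosomal centring (0.48). It was lowest on 1 h replicate 3, and without that array the difference was 0.58 (adjusted p = 0.025). Psmg1 differed from 1 h by -0.42 ± 0.14 at 12 h (limma adjusted p = 0.0505), Psmg3 by -0.03 ± 0.17 and Psmg4 by -0.11 ± 0.19, and these 3 were called at no time. Of the chaperones of the regulatory particle, Psmd9 was the only member lower at 16 d than at 1 h. It measured 9.33, 9.70, 8.997, 9.53 and 9.80 at 1 h, 9.65, 8.94, 8.70, 9.11 and 9.69 at 12 h, 9.09, 8.62, 8.86, 8.74 and 9.29 at 1 d, 8.81, 8.96, 8.61, 8.59 and 8.84 at 2 d and 8.72, 8.74, 8.75, 8.22 and 8.60 at 16 d. From 2 d on its arrays lay below every 1 h array. It fell by 0.55 ± 0.18 at 1 d (limma adjusted p = 0.0342), a call lost on leaving out any of 6 of the 10 arrays (adjusted p up to 0.0896). It fell by 0.71 ± 0.18 at 2 d and 0.86 ± 0.18 at 16 d (limma adjusted p = 0.00615 and 0.00938). Psmd10, also known as gankyrin, rose by 0.64 ± 0.21 at 2 d (limma adjusted p = 0.0327), a call that any of 5 of the 10 arrays ended; without 1 h replicate 3, where it was lowest, the difference was 0.42 (adjusted p = 0.123). The call was also lost under ribosomal centring (0.37, adjusted p = 0.0961). Psmd5 was not called at any time against 1 h.

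The tissue-restricted core genes sat at the dim end. Psma8, known from testis, lay between group means of 3.89 and 4.07 and was called at no time. Psmb11, known from thymus epithelium, was at 3.90 ± 0.12 at 1 d, against 4.32 ± 0.31 at 1 h, a fall of 0.41 ± 0.12 (limma adjusted p = 0.016) that was lost without 1 h replicate 3 (-0.29, adjusted p = 0.0523), the array on which it was highest. Levels near 4 are at the limit below which 33.3% of probe sets lie (3.94). Psmc3ip measured 6.32, 4.87, 5.38, 5.51 and 5.12 at 2 d, against 4.87, 5.00, 4.92, 4.89 and 4.83 at 1 h, and rose by 0.54 ± 0.17 (limma adjusted p = 0.0221); without 2 d replicate 1, the high array, it differed by 0.32 (adjusted p = 0.0589). It was not called under ribosomal centring (0.27, adjusted p = 0.174). Psme3ip1 was called at no time.

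Between 2 d and 16 d 4 member probe sets rose and 6 fell (9.71%, against 16.3% of all probe sets). Psmd8 fell by 0.74 ± 0.10 (limma adjusted p = 9.94e-06), and its arrays at 16 d, 10.52, 10.63, 10.54, 10.17 and 10.44, all lay below those of 2 d. After ribosomal centring the split was 46 higher and 2 lower, and Psmd8 stayed among the lower (-0.46). Over all 45037 probe sets that centring gave 26026 higher and 2492 lower, so the upward split was not particular to the members. Psmd13 had probe sets called in both directions, the brightest at -0.39 ± 0.12 (limma adjusted p = 0.0355) and another at 0.33 ± 0.10 (adjusted p = 0.0331), so no direction is given for that gene. The brightest was not called under ribosomal centring (-0.10, adjusted p = 0.475). No other comparison had a gene called in both directions.

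Against control, 32 probe sets of 24 genes could be followed through all 9 times, among them 7 of the 14 constitutive core genes, 11 of the 17 regulatory genes and 1 of the 3 immunoproteasome genes, Psmb8. No member probe set was called at 1 h or 6 h by limma (0.578% and 5.42% of all probe sets were); 2 and 3 had an unadjusted p under 0.05. At 12 h 3 rose and 1 fell (12.5% of members, against 22.8% of all), at 1 d 7 and 3 (31.2%, against 28.8%), and at 2 d 3 and 7 (31.2%, against 31.8%). At 4 d 2 rose and 15 fell (53.1%, against 15.2%), at 6 d 1 and 4 (15.6%, against 7.47%), at 8 d 1 and 5 (18.8%, against 7.19%), and at 16 d none and 6 (18.8%, against 5.89%). Ribosomal centring gave 2 higher and 12 lower at 1 d, 2 and 19 at 2 d, 2 and 13 at 4 d, 2 and 4 at 6 d, and 1 and 5 at 16 d. Over all 8137 probe sets it gave 743 higher and 3585 lower at 1 d, and 1077 and 3305 at 2 d. These counts were 886 and 387 at 4 d, 550 and 181 at 6 d, and 326 and 221 at 16 d. With quantile normalization 3 were higher and 15 lower at 2 d, and 1 and 13 at 6 d. Of all probe sets, 1352 were then higher and 1907 lower at 2 d, and 401 and 462 at 6 d.

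At 4 d the regulatory particle was below control. Of its 11 measured genes 8 fell and none rose, all 11 differences were negative and their median was -0.39, against 9.82% of all genes called higher and 6.31% lower; 7 of 11 were called lower under ribosomal centring and 9 under quantile normalization. The 8 include all 5 ATPases measured, from Psmc1 (-0.54 ± 0.12, limma adjusted p = 0.00166) and Psmc5 (-0.51 ± 0.11, adjusted p = 0.00055) to Psmc3 (-0.31 ± 0.11, adjusted p = 0.0389). The calls of Psmc3 and Psmc4 were lost on leaving out any of 7 and 6 of the 10 arrays (adjusted p up to 0.112 and 0.126), and that of Psmc4 also under ribosomal centring (-0.46, adjusted p = 0.0726). Of the 7 core genes 2 fell at 4 d, Psma6 by 0.50 ± 0.10 and Psmb3 by 0.41 ± 0.12 (limma adjusted p = 0.000175 and 0.0125), and all 7 differences were negative with a median of -0.24. That count was 1 without control replicate 1, where Psmb3 differed by -0.34 (adjusted p = 0.0547), and 4 without control replicate 3. Psmc3, Psmc5 and Psma6 were named after their values were seen.

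Psmd4, the subunit that receives ubiquitin chains, had the largest fall. It measured 10.00, 9.77, 9.74, 9.93 and 9.99 at 4 d, against 11.10, 10.60, 10.47, 10.84 and 10.84 in control livers, and every 4 d array was below every control array. It fell by 0.61 ± 0.12 at 2 d, 0.88 ± 0.12 at 4 d, 0.67 ± 0.12 at 6 d, 0.63 ± 0.12 at 8 d and 0.68 ± 0.12 at 16 d (limma adjusted p from 6.34e-07 to 0.000391), without overlap at any of these times. Psmd9 was called lower at these times too and, by 0.46 ± 0.16, at 1 d (limma adjusted p = 0.0284), where the call was lost on leaving out any of 6 of the 10 arrays (adjusted p up to 0.0907). It measured 8.81, 8.59, 8.36, 8.72 and 8.61 at 4 d and 8.72, 8.74, 8.75, 8.22 and 8.60 at 16 d, against 9.65, 9.15, 9.03, 9.43 and 9.64 in control livers. It fell by 0.76 ± 0.16 at 4 d and 0.77 ± 0.16 at 16 d (limma adjusted p = 0.000617 and 0.00124), also without overlap. Both kept their calls of 2 d to 16 d under ribosomal centring and on leaving out any array. Psmd6 measured 10.13, 10.05, 9.98, 10.07 and 10.03 at 4 d, against 10.73, 10.92, 10.15, 10.63 and 10.61 in control livers, and fell by 0.56 ± 0.11 (limma adjusted p = 0.000199); its fall of 0.36 ± 0.11 at 16 d (adjusted p = 0.0325) was lost on leaving out any of 6 of the 10 arrays (adjusted p up to 0.16) and under ribosomal centring (-0.31, adjusted p = 0.0553). Psmd5 had the third of the 3 largest positive differences at 4 d, 0.12 ± 0.10, and was not called.

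Psmb8 was above control for longer than any constitutive subunit measured. It measured 9.11, 8.66, 8.73, 9.28 and 9.14 at 2 d, 8.64, 8.41, 8.25, 8.87 and 8.77 at 4 d, 8.72, 8.92, 8.68, 9.14 and 8.50 at 6 d and 8.86, 8.21, 8.78, 8.54 and 8.66 at 8 d, against 7.82, 7.66, 7.17, 8.12 and 8.08 in control livers. All 20 of these arrays lay above the control arrays. Psmb8 rose by 1.21 ± 0.19 at 2 d, 0.82 ± 0.19 at 4 d, 1.02 ± 0.19 at 6 d and 0.84 ± 0.19 at 8 d (limma adjusted p = 3.09e-06, 0.00213, 0.000308 and 0.00329), 2.32-fold at 2 d, and these calls held under ribosomal centring and on leaving out any array. At 16 d the difference was 0.58 ± 0.19 (limma adjusted p = 0.0734), which passed the threshold under ribosomal centring (0.63, adjusted p = 0.023). Psme1 rose by 0.44 ± 0.11 at 2 d and 0.52 ± 0.11 at 4 d (limma adjusted p = 0.00157 and 0.000546). The 2 d call, not that of 4 d, was lost under ribosomal centring (0.22, adjusted p = 0.0548). Its fall of 0.29 ± 0.11 at 12 h (adjusted p = 0.0469) was lost on leaving out any of 8 of the 10 arrays. Of the 9 leukocyte markers measured here 8 were higher at 2 d and 5 at 6 d, and none was called at 8 d by limma (median 0.43). Cd3e was lower at 2 d (-0.34, limma adjusted p = 0.00728). At 4 d the markers had a median of 1.05, with 8 positive differences. Of 6 interferon genes 4 were higher at 2 d, 4 at 6 d and 2 at 8 d. At 4 d only Ifit2 and Ube2l6 were called higher (1.63 and 0.93). Of all 8137 probe sets, 1586 were called higher at 2 d, 738 at 4 d, 412 at 6 d and 366 at 8 d.

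Psmd8, Psmd14 and Psmc4 rose over control at 12 h and at 1 d, and the core genes Psma7, Psmb3 and Psmb5 at 1 d. Psmd8 measured 11.66, 11.32, 11.48, 11.65 and 11.46 at 1 d, against 10.85, 10.26, 10.28, 10.71 and 10.71 in control livers, and rose by 0.95 ± 0.11 (limma adjusted p = 8.4e-09), with no overlap. It was 0.29 ± 0.12 from control at 6 h (adjusted p = 0.192) and -0.20 ± 0.11 at 4 d (adjusted p = 0.248). Psmd14 rose by 0.55 ± 0.10 at 1 d (limma adjusted p = 5.61e-05). Psmb3 and Psmb5 rose by 0.45 ± 0.12 and 0.35 ± 0.10 at 1 d (limma adjusted p = 0.00321 and 0.00426). Under ribosomal centring they differed by 0.19 and 0.10 and were not called. Psma7, an alpha ring subunit named after its values were seen, rose by 0.44 ± 0.14 (limma adjusted p = 0.0156). Its call was lost without control replicate 2 or 3 (adjusted p up to 0.0663) and under ribosomal centring (0.19, adjusted p = 0.247). Psmc4 rose by 0.57 ± 0.17 at 12 h (limma adjusted p = 0.011), lost without 12 h replicate 1 (0.46, adjusted p = 0.0513). Its rise of 0.49 ± 0.17 at 1 d (limma adjusted p = 0.0238) was lost without 1 d replicate 1 or 3 or control replicate 3 or 4 (adjusted p up to 0.0849) and under ribosomal centring (0.24, adjusted p = 0.24). The comparisons with 1 h and with control share arrays and are not independent.

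**Figure D5:**
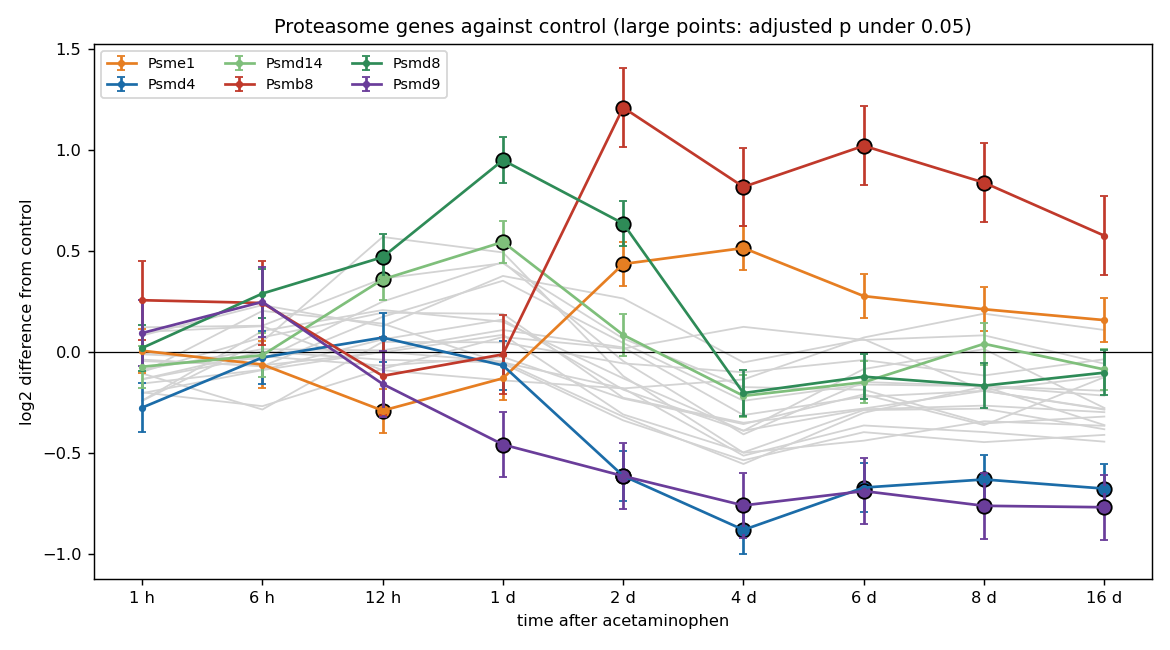
Log2 difference from control of 23 subunit genes at 9 times; bars are standard errors and large points have an adjusted p under 0.05. Psmd8 peaks at 0.95 at 1 d, Psmb8 at 1.21 at 2 d and stays above control to 8 d, and Psmd4 reaches -0.88 at 4 d; ribosomal centring shifts all curves by -0.25 at 1 d and -0.22 at 2 d, and by at most 0.05 from 4 d on.

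Among genes that work with the proteasome, of 13 partners, 6 rose and none fell at 12 h and again at 1 d against 1 h (7.77% and 11.2% of all genes rose). At 2 d against 1 d 4 fell and none rose (1.83% of all genes fell). At 1 d Zfand2a, which binds proteasomes in stressed cells, rose by 1.67, Akirin2, which brings proteasomes into the nucleus, by 0.55, and Usp14, a deubiquitinase on the particle, by 0.51. Of 6 ubiquitin and unfoldase genes, 4 rose at 12 h and 3 at 1 d, with Sqstm1, a ubiquitin-binding autophagy receptor, at 0.66, Ufd1 at 0.47 and Vcp at 0.27, and 4 fell at 2 d against 1 d. The shares of all genes are those given for the partners. Ribosomal centring left 7 of the 13 partners and 2 of the 6 ubiquitin and unfoldase genes above 1 h at 1 d. Of 7 transcription factor genes, 1 rose at 1 d (11.2% of all genes), Stat3 at 0.99, and 1 fell (10.9%), Ngly1, the deglycosylase that Nfe2l1 needs, at -0.48. Of 10 genes of MHC class I presentation, 2 rose (Pdia3 at 0.40, Calr at 0.38) and 4 fell at 1 d (11.2% and 10.9% of all genes), Erap1 at -0.48 and B2m at -0.38 furthest. At 2 d against 1 h 5 rose and 2 fell (14.3% and 12.5% of all genes), and against 1 d Tapbp alone rose, by 0.75, a gene named after its values were seen. Tap1 and Tap2, which neighbour Psmb9 and Psmb8 on chromosome 17, were among the 5, at 0.45 and 0.49.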

How the data were processed

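Expression was measured on 49 arrays in 10 groups. The deposited log2 values were made by the authors with RMA in oligo 1.52.0, per the submitters' processing notes; the sources used here do not say whether all arrays entered 1 run, and the precision is limited by the number of arrays. From these values, 64 control probe sets were left out and limma 3.58.1 in R 4.3.3 fitted 1 mean per group, over the 25 arrays with 45037 probe sets and over all 49 arrays with 8137, with no block; both fits were tested on simulated data. Benjamini-Hochberg adjustment ran over all probe sets of a comparison. Pair differences were tested by exact permutation (scipy 1.17.1). Where probe sets share sequence with a related gene, or genes overlap (Psme1 and Emc9, Psmf1 and Tmem74b), signals may be mixed. Members and gene lists were chosen with earlier results of these data known. Named genes are the catalytic subunits, activators, inhibitor and core chaperones, the largest and smallest difference per role class at 1 d against 1 h, the 3 largest rises and falls at 4 d against control, and called genes of the pathway lists; others are marked as named after their values were seen. Alternatives covered probe set choice, scaling, array weights, limma's settings, dim probe sets, the samples fitted, the 3 less spread arrays and leaving out each array.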

Additional observations from a re-analysis of the deposited data

Results flagged for a closer look

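In 34 of 230 groups of 4 or 5 arrays of the named genes, 1 array stood far from the others by Dixon's test, which chance alone flags in about 1 in 20 groups. Values are log2 levels, and no cause was tested. 12 h replicate 2 was low for Psmb6 at 10.28, against 10.54 to 10.60 and Psme4 at 9.60, against 10.08 to 10.27 on the other arrays of its group. 16 d replicate 4 was low for Psmb6 at 9.87, against 10.27 to 10.40, Psmb9 at 7.39, against 7.96 to 8.14, Psmb10 at 7.83, against 8.56 to 8.85 and Psme1 at 9.44, against 9.92 to 10.11 on the other arrays of its group. 16 d replicate 4 was also low for Psme3 at 6.17, against 6.93 to 7.12, Psme4 at 9.83, against 10.28 to 10.43, Psmf1 at 7.62, against 7.94 to 8.06 and Psmd1 at 9.51, against 10.01 to 10.09 on the other arrays of its group. 16 d replicate 4 was also low for Psmd10 at 6.21, against 7.23 to 7.41 and Psmd9 at 8.22, against 8.60 to 8.75 on the other arrays of its group. 2 d replicate 2 was low for Psmb6 at 10.30, against 10.42 to 10.46 on the other arrays of its group. 2 d replicate 5 was high for Psmb7 at 10.22, against 9.76 to 9.89 on the other arrays of its group. 1 h replicate 3 was low for Psme3 at 6.16, against 6.95 to 7.09, Psmg2 at 7.76, against 8.50 to 8.61, Psmg3 at 7.73, against 8.31 to 8.51 and Psmg4 at 6.96, against 7.90 to 8.06 on the other arrays of its group. 1 h replicate 3 was also low for Psmf1 at 7.70, against 7.91 to 7.94, Psma2 at 9.88, against 10.15 to 10.21, Psmc1 at 9.38, against 9.72 to 9.81 and Psmd10 at 6.15, against 7.02 to 7.33 on the other arrays of its group. 1 h replicate 3 was also low for Psmd5 at 7.76, against 8.09 to 8.21 on the other arrays of its group. Control replicate 3 was low for Psme3 at 6.25, against 7.26 to 7.37, Psmc1 at 9.27, against 9.85 to 10.05 and Psmd5 at 8.04, against 8.31 to 8.40 on the other arrays of its group. 6 d replicate 4 was high for Psma1 at 10.57, against 10.45 to 10.48 on the other arrays of its group. 6 h replicate 1 was high for Psmc4 at 10.78, against 9.99 to 10.05 and Psmc1 at 10.20, against 9.92 to 9.95 on the other arrays of its group. 8 d replicate 2 was high for Psmd6 at 10.73, against 10.34 to 10.39 on the other arrays of its group. 8 d replicate 2 was low for Psmd8 at 9.86, against 10.39 to 10.60, Psmb3 at 9.45, against 10.12 to 10.21, Psmd9 at 8.14, against 8.68 to 8.79 and Psmd5 at 8.07, against 8.41 to 8.49 on the other arrays of its group. Of the 3 less spread arrays, 16 d replicate 4, 1 h replicate 3 and control replicate 3 each stood apart for several of these genes, always as the lowest.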

How the results depend on the processing

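Counts of called member probe sets moved by about 1.5 times or more under the alternatives listed first. The ranges with 1 array left out are given for every comparison, also where the counts moved less. Array weights gave 3 at 6 h, 18 at 2 d, 26 at 4 d, 18 at 6 d, 13 at 8 d and 14 at 16 d against control, and 22 at 12 h, 32 at 2 d and 11 at 16 d against 1 h. Quantile normalization gave 2, 18, 14, 14 and 12 at 6 h, 2 d, 6 d, 8 d and 16 d against control, and 25, 33, 28 and 8 at 12 h, 1 d, 2 d and 16 d against 1 h. Ribosomal centring gave 21 at 2 d against control, 26, 37 and 67 at 12 h, 1 d and 2 d against 1 h, and 48 at 16 d against 2 d. Fitting the compared groups alone gave 1, 3 and 2 at 12 h, 1 d and 16 d against control, 2 at 16 d against 1 h, 0 at 1 d against 12 h and 6 at 16 d against 2 d. Without the 3 less spread arrays, 1, 10 and 12 were called at 6 h, 6 d and 8 d against control, and 25 at 2 d and 3 at 16 d against 1 h. Leaving out 1 array gave, against control, 0 to 1 at 1 h, 0 to 2 at 6 h, 2 to 5 at 12 h, 6 to 9 at 1 d, 8 to 13 at 2 d, 12 to 22 at 4 d, 3 to 10 at 6 d, 4 to 10 at 8 d and 4 to 10 at 16 d, the highest from 2 d on without control replicate 3. It gave 11 to 16 at 12 h, 15 to 22 at 1 d, 11 to 18 at 2 d and 1 to 2 at 16 d against 1 h, 0 to 1 at 1 d against 12 h, 16 to 28 at 2 d against 1 d and 3 to 10 at 16 d against 2 d. Psmb8 minus Psmb5 at 1 d passed the threshold with the mean of a gene's probe sets (-0.53) and quantile normalization (-0.78), and ran from -0.89 to -0.50 with 1 array left out; Psmb9 minus Psmb6 ran from -0.90 to -0.55. With the mean of probe sets Psmd13 turned to 0.036 at 16 d against 2 d. Under ribosomal centring most core and regulatory differences from 1 h turned sign at 1 d, as counted above. The turns listed here are those of genes called on at least 1 of the 2 scales. At 1 d against 1 h they were Psma3 -0.050, Psmc1 -0.29, Psmd11 -0.049 and Psme3ip1 -0.26. At 2 d against 1 h they were Psma2 -0.23, Psma6 -0.25 and Psmb4 -0.26. At 16 d against 2 d they were Psma4 0.27, Psmb5 0.023, Psmd12 0.25 and Psme3ip1 0.27. The cause was not tested. Replicate numbers were not treated as pairs in the main fits. The lowest correlation between arrays of the same number ran from -0.56 to 0.09 per comparison, and the highest from 0.13 to 0.82. In most comparisons the mean correlation was higher for the same number than for other numbers, as at 1 h against control (0.38 and -0.07). It was not higher at 6 d and 16 d against control and at 16 d against 1 h (-0.06 and 0.06 in the last). With the replicate block 16, 19 and 18 were called at 12 h, 1 d and 2 d against 1 h, and of 559 values for single genes 8 gained and 1 lost a call.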

Other observations

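Within MHC class I presentation, members moved in both directions at 2 d. H2-K1, a classical class I heavy chain, fell by 0.42 at 2 d against 1 h (limma adjusted p = 2.83e-05) and B2m, the light chain, by 0.19 (adjusted p = 0.0469), while the peptide transporter genes Tap1 and Tap2 rose by 0.45 and 0.49 (adjusted p = 0.0132 and 0.0181). Among the transcription factor genes, Nfe2l2 rose by 0.87 at 12 h and 1.11 at 2 d against 1 h (limma adjusted p = 0.00315 and 0.000161), differed by 0.39 at 1 d (adjusted p = 0.169) and rose by 0.72 at 2 d against 1 d (adjusted p = 0.0243). Nfe2l1 fell by 0.49 at 12 h and 0.42 at 2 d against 1 h (adjusted p = 0.0131 and 0.0229) and differed by -0.35 at 1 d (adjusted p = 0.0678). These genes were named after their values were seen.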
